A study of Mus musculus with 6 samples.

Results

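Gzma-high natural killer (NK) cells are described here from the leukocytes of mouse tumours, measured by droplet single-cell RNA sequencing with unique molecular identifiers (UMIs, counts of captured RNA molecules). The cells were chosen by measured values of the same data. A barcode qualified with 500 or more UMIs, 200 or more detected genes and a mitochondrial share of no more than 10%. It also needed at least 2 UMIs of Ncr1 and Klrb1c together, which encode the NK receptors NKp46 and NK1.1, and at least 1 UMI of Eomes, a transcription factor of NK cells. The T cell genes Cd3e and Cd3d and the macrophage receptor gene Csf1r had to be at 0, and Mki67 and Top2a, genes of dividing cells, at no more than 1 UMI together. The last requirement was a Gzma (granzyme A) level of at least 40 UMIs per 10000 UMIs of the cell. Of 49518 deposited barcodes, 46891 passed the limits on depth and mitochondrial content. Among these, 4091 met every requirement but that on Gzma, 3125 were Gzma-high, and the other 966 are called Gzma-low. The Gzma-high cells numbered 728, 44 and 66 in the libraries BrM 1 to 3, against 1364, 811 and 112 in MFP 1 to 3. These genes chose the cells, so their levels are given as a description only.

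The BrM group holds leukocytes from tumours of the brain, and the MFP group leukocytes from tumours of the mammary fat pad. Tumours of both groups had been started by injecting a breast cancer cell line with a history of brain metastasis into the organ named. All animals were female C57BL/6J mice aged 10 to 12 weeks, without a further genotype or treatment in the labels. Each site had 3 libraries, for which 16000 sorted cells positive for the leukocyte protein CD45 were loaded. The injected line is a limit of the model: the tumours were implanted at their site and did not spread there. Whether each library came from its own animals is not stated in the labels. The p-values below therefore measure only how much these samples vary, and part of that may be technical.

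NK cells are innate lymphocytes that kill target cells by releasing granules holding perforin, which opens the membrane, and granzymes, proteases that cleave proteins inside the target. In mice they are known to mature through an early stage with the receptor CD27 and a late stage with the integrin CD11b (Itgam) and, on part of the cells, the inhibitory receptor KLRG1. Eomes separates them from ILC1, tissue-resident innate lymphocytes that share Ncr1 and Klrb1c. Granzyme A protein is stored in resting mouse NK cells, and the RNA of granzyme B and perforin is known to be present before their proteins accumulate.

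The libraries differed in ways that the site does not explain. Total UMIs ranged from 50692794 to 70944735 per library. BrM 1, MFP 1 and MFP 2 had lower totals and many Gzma-high cells, with 3826895, 7441623 and 4180262 UMIs summed over those cells. BrM 2, BrM 3 and MFP 3 had higher totals and few such cells, with 222142, 229286 and 608712 UMIs. Levels in the last 3 libraries are therefore less precise. Median depth per Gzma-high cell lay between 2860 and 4868 UMIs in BrM and between 4777 and 5076 UMIs in MFP. In all, 292 barcodes occurred in more than 1 library, at 10 to 39 per pair of libraries, and 43 Gzma-high cells carried such a barcode. Only 2 barcodes were Gzma-high in 2 libraries.

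The rule fixed the NK identity of the cells, so the markers below describe them and do not test it. Levels are given as the UMIs of a gene per 1000000 UMIs (CPM), summed over the cells of a library. The other 3 markers named with the label, Prf1 (perforin), Cma1 (a chymase) and Serpinb9b (a protease inhibitor of the serpin family), were detected in all 6 libraries. To compare shares of cells, each cell was thinned to 2000 UMIs. Prf1 was then detected in 53.9% ± 6.92 of Gzma-high cells (mean ± SD over 6 libraries), 27.8% ± 9.49 of Gzma-low cells and 0.488% ± 0.606 of B cells, which serve as a measure of free RNA. Without thinning, the share in Gzma-high cells was 74.5%. Late-stage receptors were found in fewer cells. Itgam was detected in 19.5% ± 7.66 of thinned Gzma-high cells, 10.7% ± 3.61 of Gzma-low cells and 1.72% ± 2.59 of B cells. Klrg1 was detected in 7.01% ± 3.28 of Gzma-high and 1.58% ± 1.23 of Gzma-low cells, and Cx3cr1, a chemokine receptor gene of late NK cells, in 1.58% ± 0.933 of Gzma-high cells, 0.504% ± 1.08 of Gzma-low cells and 1.07% ± 0.998 of B cells, so that its share lay near the background. Klrg1 was found in 0 of 927 thinned B cells, which allows a share of up to 0.324%. Cd27 was still detected in 17.3% ± 3.42 of Gzma-high cells, 25.6% ± 2.24 of Gzma-low cells and 2.47% ± 0.961 of B cells. The cells are called by their rule, Gzma-high NK cells.

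Compared with Gzma-low cells of the same libraries, the Gzma-high cells had more RNA of several other genes of the killing machinery. Gzma made up between 0.929% and 1.26% of all their UMIs. Of 2854 genes at a mean of 50 CPM or more in either state, 306 were higher and 155 lower in Gzma-high cells in every library. The mean over libraries of the log2 ratio, taken after adding 5 CPM to both levels, was at least 1 for 8 of the 306 genes and at most -1 for 2 of the 155. No test is given, because the rule divided these same cells by Gzma.

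Beside Gzma itself (11286 ± 1127 CPM in Gzma-high and 1662 ± 323 CPM in Gzma-low cells), the largest mean log2 ratios belonged to proteases and a protease inhibitor. Cma1 averaged 81.0 ± 35.4 CPM in Gzma-high and 9.72 ± 3.49 CPM in Gzma-low cells, a log2 ratio of 2.38 ± 0.81. Serpinb9b averaged 88.0 ± 20.5 CPM in Gzma-high and 19.0 ± 13.1 CPM in Gzma-low cells, a ratio of 2.07 ± 0.80 on the log2 scale. Gzmb, granzyme B, the main inducer of target cell death among granzymes, averaged 1773 ± 498 CPM in Gzma-high and 503 ± 337 CPM in Gzma-low cells (log2 ratio 2.01 ± 0.94). Its Gzma-low values varied most, being 324, 643 and 1099 CPM in BrM 1 to 3, against 229, 208 and 514 CPM in MFP 1 to 3. Prf1 averaged 556 ± 119.5 CPM in Gzma-high and 221 ± 59.4 CPM in Gzma-low cells (log2 ratio 1.32 ± 0.27). Gzma-high values lay above Gzma-low values in all 6 libraries for each of these genes. BrM 2 stood apart for Cma1, with 13.5 CPM in its Gzma-high cells, against 78.5 to 116 CPM in those of the other 5 libraries. Serpinb9 and Gzmb have near copies in the mouse genome, so the counts of Serpinb9b and Gzmb are uncertain where reads could belong to a copy.

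The promoters of the 4 protease and perforin genes are shown because these genes lead the difference in killing machinery between the states. They are RefSeq sequences (build GRCm38.p6) of the 250 bases before each annotated start, written 5′ to 3′ on the gene's own strand. Capitals mark matches to 4 short motifs, searched on both strands: AGGTGT (T-box half-site, as bound by Eomes and T-bet), TGTGGT (RUNX factors), GGAAGT (ETS factors) and CACCTG (E-box of the ZEB factors). The Gzma window lies at chr13:113100982-113101231 on the minus strand, Prf1 at chr10:61297586-61297835 on the plus strand, Gzmb at chr14:56262335-56262584 and Cma1 at chr14:55944676-55944925, both on the minus strand. All 4 genes were found in the RefSeq table.
Gzma: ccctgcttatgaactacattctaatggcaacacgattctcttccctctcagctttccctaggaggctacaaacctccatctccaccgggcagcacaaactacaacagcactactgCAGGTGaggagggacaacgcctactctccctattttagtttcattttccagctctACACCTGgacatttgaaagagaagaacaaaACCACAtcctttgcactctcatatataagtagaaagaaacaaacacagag
Prf1: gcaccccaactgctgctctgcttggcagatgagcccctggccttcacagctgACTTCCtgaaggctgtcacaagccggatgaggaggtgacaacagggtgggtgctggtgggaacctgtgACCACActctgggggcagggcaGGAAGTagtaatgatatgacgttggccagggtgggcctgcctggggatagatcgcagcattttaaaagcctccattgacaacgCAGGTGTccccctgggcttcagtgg
Gzmb: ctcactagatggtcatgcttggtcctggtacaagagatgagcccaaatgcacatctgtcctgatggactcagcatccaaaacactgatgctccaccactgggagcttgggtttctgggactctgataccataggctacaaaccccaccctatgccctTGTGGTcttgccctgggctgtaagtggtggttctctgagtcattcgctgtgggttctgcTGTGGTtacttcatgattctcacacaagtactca
Cma1: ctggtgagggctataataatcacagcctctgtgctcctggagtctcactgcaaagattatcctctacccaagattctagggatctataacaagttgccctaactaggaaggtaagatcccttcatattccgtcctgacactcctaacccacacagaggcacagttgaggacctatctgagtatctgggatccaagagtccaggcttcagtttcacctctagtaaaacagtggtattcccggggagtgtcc
The T-box half-site was found in 2 of the 4 windows, starting 80 bases before the Gzma start on the opposite strand and 24 bases before the Prf1 start on the same strand. In both windows it overlapped an E-box of the ZEB factors, at 79 bases in Gzma and 25 bases in Prf1. Gzma held another E-box at 135 bases. The RUNX motif was found in 3 windows, at 50 bases in Gzma, 130 bases in Prf1 and at 93 and 34 bases in Gzmb, and the ETS motif in 1 window, at 198 and 108 bases in Prf1. The Cma1 window held none of these letters. Of 32851 RefSeq promoter windows of the same length, 11.8% held the T-box half-site, 14% the RUNX motif, 19.7% the ETS motif and 17.2% the E-box, so none of these motifs is rare among promoters. These matches describe letters and do not show binding.

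Other genes higher in Gzma-high cells encode secreted, surface and signalling proteins. Ly6c2, a surface protein gene of late NK cells, averaged 155 ± 71.5 CPM in Gzma-high and 45.1 ± 17.0 CPM in Gzma-low cells (log2 ratio 1.60 ± 0.97), but the ratio was only 0.12 in the library where it was lowest. Ccl5, a chemokine gene, averaged 8034 ± 2451 CPM in Gzma-high and 3859 ± 1210.2 CPM in Gzma-low cells (log2 ratio 1.05 ± 0.51). Fgl2, the gene of a fibrinogen-like secreted or membrane protein, averaged 174 ± 24.0 CPM in Gzma-high and 90.9 ± 28.9 CPM in Gzma-low cells (log2 ratio 0.94 ± 0.23). Tulp4 had a log2 ratio of 1.07 ± 1.00. Another 10 of the 20 genes with the largest ratios lay between 0.71 (Pacsin2, a membrane-bending protein) and 0.82 (Hes1, a transcriptional repressor) on the log2 scale. They include Sytl2, a protein of vesicle docking, S1pr4, a receptor for sphingosine 1-phosphate, and Emp3, a membrane protein. The others were Crybg1, Ehd4, Nsd2, Mcrip1 and Lpin1.

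Genes lower in Gzma-high cells were led by Ltb and Emb. Ltb encodes lymphotoxin beta, a TNF family member of early NK cells, and averaged 74.4 ± 13.6 CPM in Gzma-high and 201 ± 41.5 CPM in Gzma-low cells (log2 ratio -1.36 ± 0.51). Emb encodes embigin, a chaperone of membrane transporters, and averaged 397 ± 136 CPM in Gzma-high and 784 ± 58.6 CPM in Gzma-low cells (log2 ratio -1.04 ± 0.49). Immediate-early transcription factor genes followed, with Fosb at 118 ± 46.4 CPM in Gzma-high and 235 ± 102 CPM in Gzma-low cells and Fos at 167 ± 33.4 CPM in Gzma-high and 262 ± 34.6 CPM in Gzma-low cells. Their log2 ratios were -0.93 ± 0.26 and -0.64 ± 0.28. Another 5 of the 10 genes with the smallest ratios were Ier5l, Epb41l4aos, Tiprl, Maff and Rgs10, at -0.87 to -0.65. Between states the median log2 ratio was 0.72 over 21 measured genes of a late maturation list and -0.43 over 19 of an early maturation list, against 0.04 over all 7273 genes at a mean of 10 CPM or more in either state. The late list holds Gzma and other genes described above, so its median is not independent of the rule. Of 31 genes of the actin and migration machinery, 27 had a positive ratio, with a median of 0.18, beside 4201 of all 7273 genes.

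**Figure D1:**
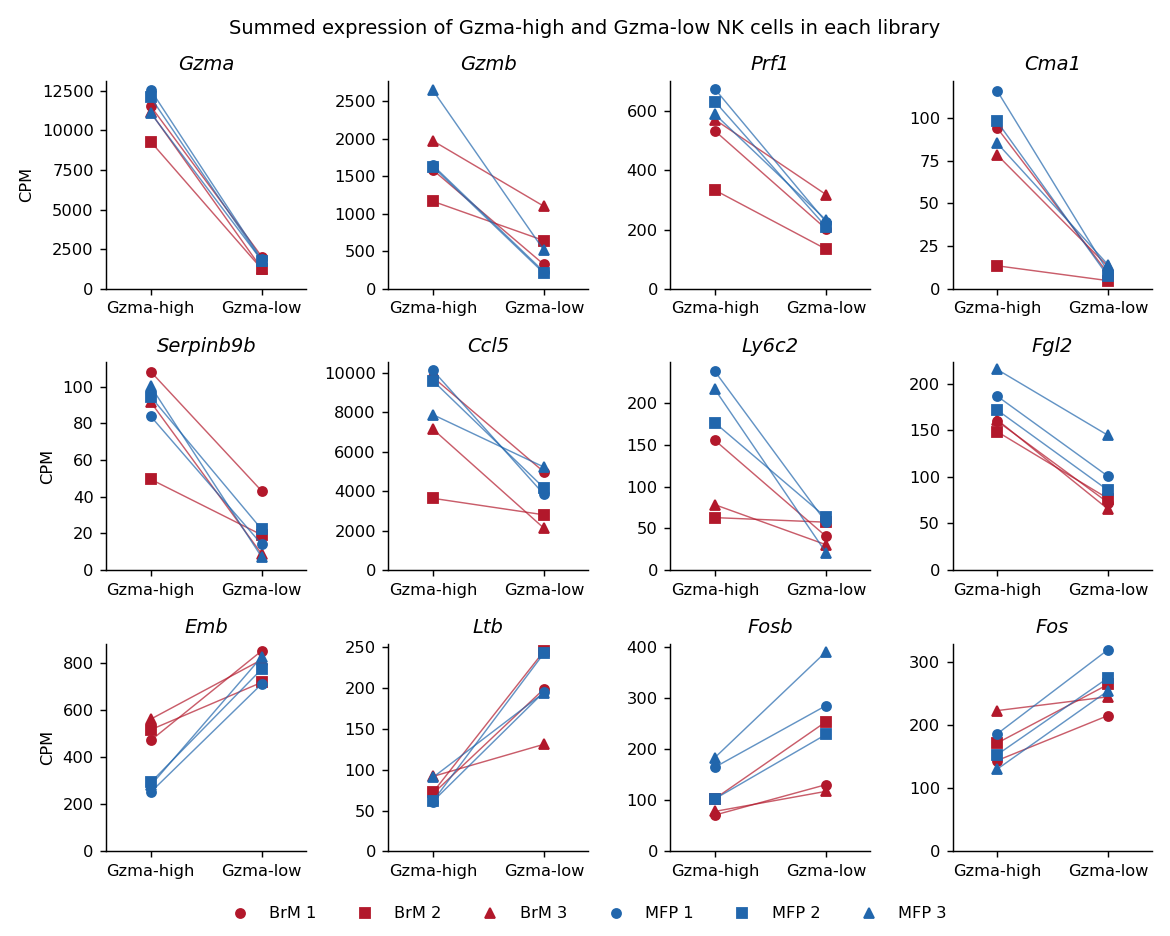
Summed expression (CPM, vertical axes from 0) of 12 genes in Gzma-high and Gzma-low NK cells of each library, joined by a line per library; red is BrM and blue is MFP. Gzma, Gzmb, Prf1, Cma1, Serpinb9b, Ccl5, Ly6c2 and Fgl2 were higher and Emb, Ltb, Fosb and Fos lower in Gzma-high cells of all 6 libraries, and the Gzma-high points of Emb separate by site.

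The threshold cuts a continuous range of Gzma. Between 40 and 50 Gzma UMIs per 10000 lay 251 cells just inside the rule, and between 30 and 40 lay 235 cells just outside it. Pooled over libraries, Prf1 was at 299.8 CPM inside and 309 CPM outside, and Cma1 at 22.3 and 15.5 CPM. Gzmb was at 684 CPM inside and 347 CPM outside, and Emb at 548 and 624 CPM. Of these 4 genes, Gzmb differed most across the limit and Prf1 least.

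Gzma-high cells also differed among themselves. Each cell carries its own set of Ly49 receptors (Klra genes), inhibitory or activating receptors for MHC class I that are switched on at random in NK cells. After thinning, a Gzma-high cell had UMIs of a mean of 2.02 ± 0.210 Klra genes (SD over 6 libraries) and a Gzma-low cell of 1.78 ± 0.112. The number was higher in Gzma-high cells in 5 libraries and lower in BrM 2, with 1.66 in Gzma-high and 1.86 in Gzma-low cells. Between 6.75% and 13.6% of Gzma-high cells per library had none, against 15.3% to 20.4% of Gzma-low cells. The Klra genes are near copies of each other, so single members are uncertain. Cma1 was detected in 13.6% ± 5.19 and Serpinb9b in 11.2% ± 2.29 of thinned Gzma-high cells, against 1.10% ± 0.929 and 2.95% ± 1.89 of Gzma-low cells. In the 5 libraries other than BrM 2, Serpinb9b was detected in 16.7% to 27.8% of cells with Cma1 and in 8.49% to 11.9% of cells without it. The lowest and the highest share among cells with Cma1 rest on 1 of 6 cells in BrM 3 and 5 of 18 cells in MFP 3. In BrM 2, only 2 cells had Cma1 and neither had Serpinb9b.

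The question of the design is whether leukocytes of a tumour in the brain differ from those of a tumour outside it. For the Gzma-high cells it has 2 sides, how many NK cells are in this state and what those cells express. Of Eomes-positive NK-gated cells, 78.3%, 54.3% and 57.9% were Gzma-high in BrM 1 to 3, against 81.3%, 72.0% and 69.6% in MFP 1 to 3. The exact (Clopper-Pearson) 95% binomial intervals, which cover counting error only, were 42.9 to 65.4% in BrM 2, 48.3 to 67.1% in BrM 3 and 61.8 to 76.6% in MFP 3. The mean was 63.5% ± 12.9 in BrM and 74.3% ± 6.19 in MFP (SD, n = 3 each). The difference of -10.8 percentage points did not exceed the spread between libraries (exact two-sided permutation p = 0.3; 0.1 is the smallest p that 3 against 3 allows). The groups overlapped, since BrM 1 lay above MFP 2 and MFP 3.

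As a share of all kept barcodes, Gzma-high NK cells were 9.18%, 0.573% and 0.806% in BrM 1 to 3, against 17.1%, 9.56% and 1.69% in MFP 1 to 3 (difference of means -5.93 percentage points, exact two-sided permutation p = 0.2). This share followed the library totals: the 3 libraries of lower total had 9.18% or more and the 3 of higher total 1.69% or less. Within each class of total the BrM values were below the MFP values, which was not tested because a class holds 3 libraries. The classes also differed in other cells. Over all kept barcodes, 9 macrophage and monocyte genes summed to 683, 20370 and 18250 CPM in BrM 1 to 3. In MFP 1 to 3 they summed to 616, 305 and 18710 CPM. The 5 neutrophil genes summed to 2.405, 467 and 386 CPM in BrM 1 to 3, against 1.98, 1.18 and 2252 CPM in MFP 1 to 3. The part of this make-up in the share of Gzma-high cells was not tested. Summed over all Eomes-positive NK-gated cells whatever their Gzma, the gene was at 9222, 5398 and 6207 CPM in BrM 1 to 3, against 10294, 8873 and 8138 CPM in MFP 1 to 3. On the log2(CPM + 1) scale the difference was -0.42 (exact two-sided permutation p = 0.3).

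**Figure D2:**
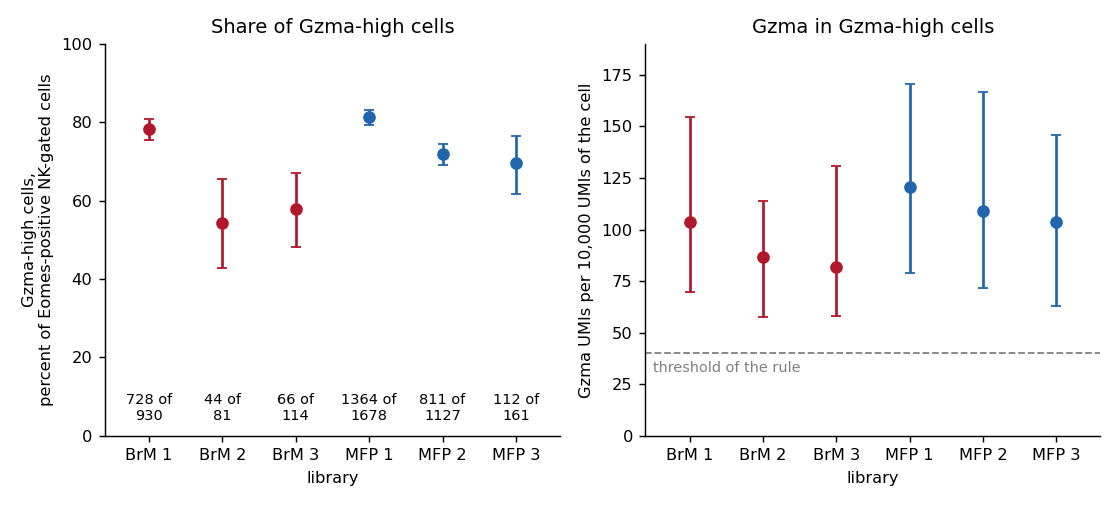
Left, Gzma-high cells as a percent of Eomes-positive NK-gated cells in each library, with exact 95% binomial intervals and the numbers of cells; right, the median Gzma level of the Gzma-high cells with the quartiles as bars, and the threshold of the rule as a dashed line. Shares ranged from 54.3% in BrM 2 to 81.3% in MFP 1, and the median Gzma of the cells from 81.7 in BrM 3 to 121 in MFP 1.

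Within the Gzma-high cells, BrM against MFP was tested on counts summed per library. Of 8640 genes tested by edgeR's quasi-likelihood test, 1 was called higher in BrM (0.0116% of genes tested) and 1 lower in BrM (0.0116%), at a Benjamini-Hochberg adjusted p of at most 0.05. A further view is the number of genes whose libraries did not overlap between sites: 501 genes (5.8%) had all BrM libraries above all MFP libraries and 700 (8.1%) had all BrM libraries below. At an unadjusted p under 0.05 there were 460 of the 8640 genes, where a share of 0.05 is expected without any site difference. With 3 libraries per site, libraries that do not overlap also occur without a difference. The count of called genes was 12 without BrM 1, 0 without BrM 2, MFP 1 or MFP 2, and 1 without BrM 3.

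Emb was the gene called higher in BrM. It had 472, 518 and 563 CPM in BrM 1 to 3, against 252, 294 and 281 CPM in MFP 1 to 3. Every BrM value was above all MFP values, and the log2 fold change was 0.92, SE 0.14 (edgeR adjusted p = 0.0291). Thinned to equal depth, 40.7, 43.2 and 54.4% of Gzma-high cells had an Emb UMI in BrM 1 to 3, against 25.5, 28.1 and 27.0% in MFP 1 to 3. In B cells the share was 5.18% ± 2.13. Embigin, the product of Emb, is a membrane glycoprotein that assists monocarboxylate transporters. Emb lies at chr13:117208536-117274415 on the plus strand (GENCODE M21, GRCm38). The call was lost without BrM 2 (adjusted p = 0.0883), without BrM 3, without MFP 1 or without MFP 2, while the fold change stayed between 0.68 and 1.12 over 19 alternatives.

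Klrg1 was the gene called lower in BrM. It encodes an inhibitory receptor for cadherins that is known to mark late NK cells, and lies at chr6:122270596-122282882 on the minus strand. Klrg1 had 19.1, 18.0 and 34.9 CPM in BrM 1 to 3, against 58.1, 48.6 and 46.0 CPM in MFP 1 to 3. These levels rest on 73, 4 and 8 UMIs in BrM 1 to 3 and on 432, 203 and 28 UMIs in MFP 1 to 3. All BrM values lay below all MFP values, with a log2 fold change of -1.37, SE 0.21 (edgeR adjusted p = 0.0291). Of thinned Gzma-high cells, 3.89, 2.27 and 7.02% had a Klrg1 UMI in BrM 1 to 3, against 10.1, 8.90 and 9.91% in MFP 1 to 3. The call was lost without BrM 1, BrM 2, MFP 1 or MFP 2, and with DESeq2 in place of edgeR. Among the libraries of higher total alone, the log2 fold change was -0.76, against -1.52 among those of lower total.

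No other gene passed the adjusted threshold, and the 18 others with the lowest p at 50 CPM or more are given as values. Higher values in BrM were held by Rnf125, a ubiquitin ligase gene, with 165, 149 and 192 CPM in BrM 1 to 3, against 107, 103 and 96.9 CPM in MFP 1 to 3 (log2 fold change 0.71, SE 0.14, adjusted p = 0.289). Srsf3, a splicing factor gene, had 572, 797 and 824 CPM in BrM 1 to 3, against 466, 426 and 488 CPM in MFP 1 to 3 (log2 fold change 0.67, SE 0.15, adjusted p = 0.387). Socs3, a feedback inhibitor of cytokine signalling, had 206, 167 and 249 CPM in BrM 1 to 3, against 138, 130.1 and 151 CPM in MFP 1 to 3 (log2 fold change 0.60, SE 0.15). In each of these genes the sites did not overlap. Cebpb, a transcription factor gene, had 343, 486 and 393 CPM in BrM 1 to 3, against 252, 271 and 268 CPM in MFP 1 to 3 (log2 fold change 0.62, SE 0.15). The others on this side were Tent5a, Rsrp1, Klra1, Isy1 and Crem, with log2 fold changes of 0.45 (Crem) to 0.67 (Klra1). Adjusted p lay between 0.289 and 0.595 for these 9 genes.

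Lower values in BrM were led by Gm42418, a noncoding locus that contains ribosomal RNA sequence, with 5604, 2728 and 4091 CPM in BrM 1 to 3, against 9441, 6555 and 9167 CPM in MFP 1 to 3 (log2 fold change -0.99, SE 0.19, adjusted p = 0.160). Its reads may come from ribosomal RNA copies elsewhere. Hist1h4d, a histone H4 gene with near copies, had 40.0, 18.0 and 21.8 CPM in BrM 1 to 3, against 60.9, 89.0 and 65.7 CPM in MFP 1 to 3 (log2 fold change -1.06, SE 0.23). Emp3 had 297, 212 and 279 CPM in BrM 1 to 3, against 438, 422 and 391 CPM in MFP 1 to 3 (log2 fold change -0.62, SE 0.14, adjusted p = 0.419). Emp3 was also among the genes that set Gzma-high cells apart from Gzma-low cells. Ly6c2 had 156, 63.0 and 78.5 CPM in BrM 1 to 3, against 238, 177 and 217 CPM in MFP 1 to 3 (log2 fold change -0.81, SE 0.22). Fosb had 71.3, 104 and 78.5 CPM in BrM 1 to 3, against 165, 103 and 184 CPM in MFP 1 to 3 (log2 fold change -0.89, SE 0.22), and MFP 2 overlapped BrM 2 there. The others were 1700017B05Rik, Neurl3, Ahnak and Nfkbid, at -0.68 (1700017B05Rik) to -0.51 (Ahnak). Adjusted p for these 9 genes lay between 0.160 and 0.646.

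**Figure D3:**
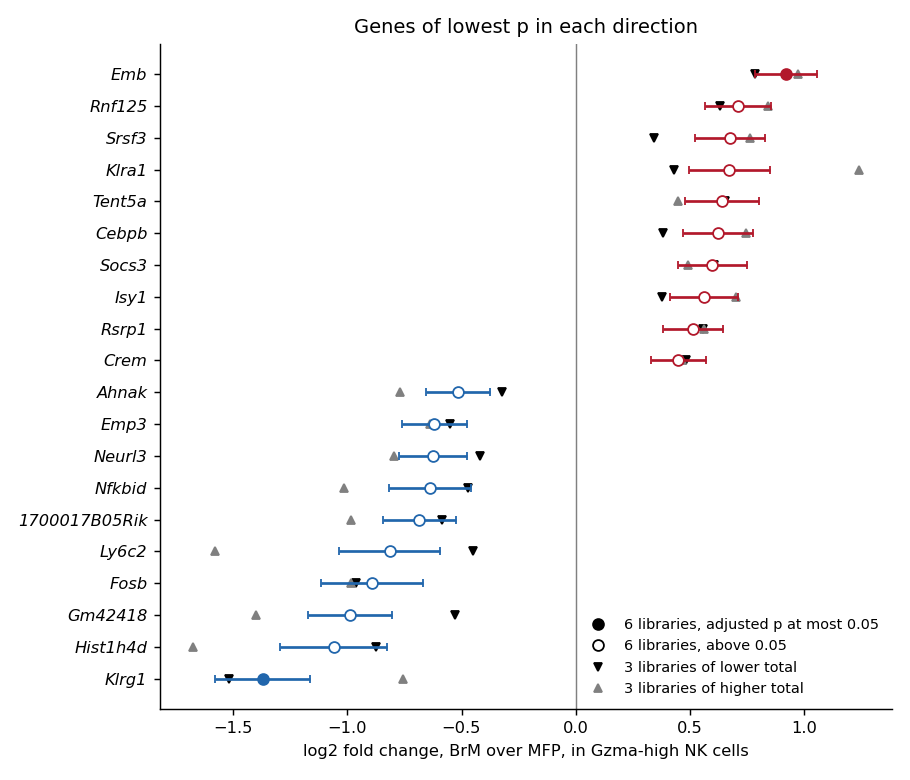
Log2 fold change of BrM over MFP in Gzma-high NK cells (horizontal axis) for the 10 genes of lowest p in each direction, as circles with ± 1 standard error, filled where the adjusted p was at most 0.05; triangles give the value within the 3 libraries of lower and the 3 of higher UMI total. Emb and Klrg1 are the filled circles, and every triangle lies on the same side of 0 as its circle.

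The Gzma level itself varied among Gzma-high cells, with medians of 103, 86.6 and 81.7 UMIs per 10000 in BrM 1 to 3, against 121, 109 and 104 in MFP 1 to 3. Emb and Klrg1 were therefore read in bins of Gzma, as a description. At 40 to 80 Gzma UMIs per 10000, Emb was at 667, 520.1 and 765 CPM in BrM 1 to 3, against 436, 487 and 466 CPM in MFP 1 to 3, where the bin of BrM 2 held 19 cells. At 80 to 160 it was at 450.5, 504 and 512 CPM in BrM 1 to 3, against 238, 257 and 214 CPM in MFP 1 to 3. In both bins every BrM value was above all MFP values. At 160 or more, Emb was at 182 CPM in BrM 1, against 64.9, 81.1 and 70.4 CPM in MFP 1 to 3, where the sites overlapped once the small bins were counted: BrM 2 was at 623 CPM over 3 cells and BrM 3 at 27.7 CPM over 10 cells, below every MFP library.

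Klrg1 increased along the Gzma bins above the threshold in the libraries with many cells. In BrM 1 it was at 11.01, 16.1 and 39.2 CPM in the bins of 40 to 80, 80 to 160 and 160 or more. In MFP 1 it was at 23.9, 54.8 and 104 CPM, and in MFP 2 at 23.3, 48.7 and 84.0 CPM. Each BrM 1 value lay below those of MFP 1 and MFP 2 in the same bin. Below the threshold, at 0 to 20, BrM 1 was at 9.58 CPM on 5 UMIs, against 4.70 CPM in MFP 1 and 11.2 CPM in MFP 2. The Klrg1 bins of BrM 2 and BrM 3 rest on 0 to 4 UMIs each and give no order.

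**Figure D4:**
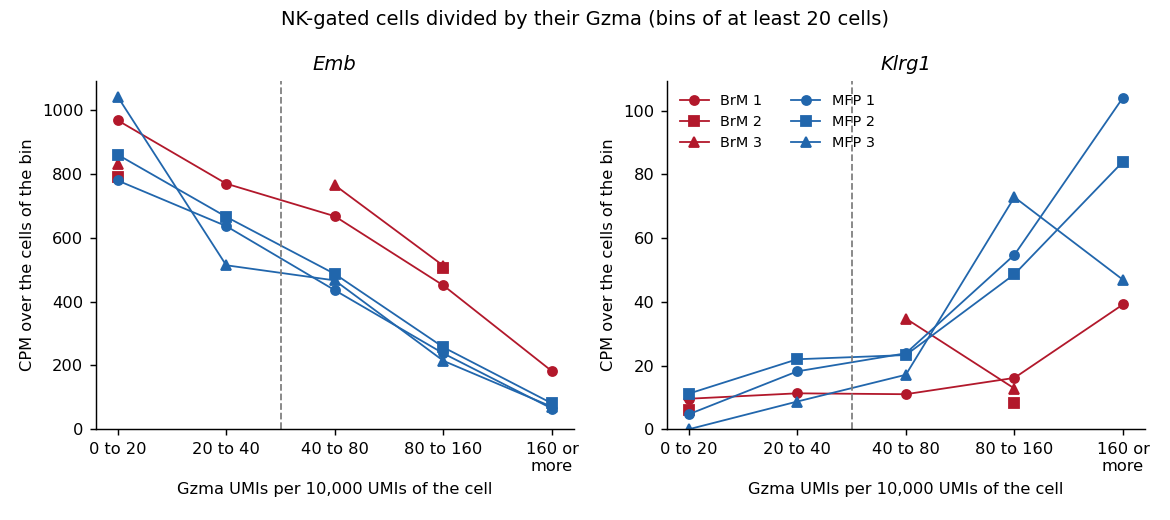
Emb (left) and Klrg1 (right) in CPM over Eomes-positive NK-gated cells divided by their Gzma level (horizontal axis), for bins of at least 20 cells; red is BrM, blue is MFP, and the dashed line is the threshold of the rule. Emb declined with Gzma in every library drawn, with BrM above MFP in the bins right of the line, and Klrg1 of BrM 1 stayed below MFP 1 and MFP 2 there.

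Genes of late NK maturation were at lower values in BrM as a list. Of 22 genes, 21 were tested (Gzma was left out as a rule gene), 18 had negative log2 fold changes, 1 fell (Klrg1) and none rose, and the median was -0.36, against -0.0034 over all 8640 genes. All BrM libraries lay below all MFP libraries for 13 of the 21, beside 8.1% of all genes tested, and for none the reverse. Itgam, the CD11b integrin, had 99.8, 40.5 and 87.2 CPM in BrM 1 to 3, against 154, 122 and 126 CPM in MFP 1 to 3 (log2 fold change -0.64, SE 0.20, edgeR adjusted p = 0.658). Lgals1, which encodes galectin-1, had 1085, 1256 and 1064 CPM in BrM 1 to 3, against 1528, 1508 and 1395 CPM in MFP 1 to 3 (log2 fold change -0.36, SE 0.12). Gzmb overlapped between sites, with 1584, 1166 and 1971 CPM in BrM 1 to 3, against 1646, 1627 and 2645 CPM in MFP 1 to 3 (log2 fold change -0.29, SE 0.19). Prf1 had 533, 333 and 571 CPM in BrM 1 to 3, against 675, 632 and 589.8 CPM in MFP 1 to 3 (log2 fold change -0.37, SE 0.16), a difference that turned to 0.04 with equal numbers of cells per library. The list's median stayed between -0.41 and -0.24 over 19 alternatives. It shares genes with the state difference above, and the median Gzma of the cells was lower in each BrM library than in each MFP library. In bins of Gzma some of its genes overlapped between sites. Itgam was at 92.5, 11.1 and 86.9 CPM in BrM 1 to 3, against 114, 91.8 and 119.8 CPM in MFP 1 to 3, at 40 to 80 Gzma UMIs per 10000, where BrM 1 lay above MFP 2. At 80 to 160 it was at 102, 58.9 and 89.6 CPM in BrM 1 to 3, against 160.4, 122 and 138 CPM in MFP 1 to 3, without overlap. In the same bin Ly6c2 was at 134, 101 and 51.2 CPM in BrM 1 to 3, against 210.5, 109 and 231 CPM in MFP 1 to 3, and Gzmb at 1181, 1732 and 1882 CPM in BrM 1 to 3, against 1341, 1213 and 2679 CPM in MFP 1 to 3. Both overlapped between sites there. The part of the Gzma level in the list's median was not tested.

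Genes of early NK maturation leaned the other way. Of 20 genes, 19 were tested, 17 had positive log2 fold changes, 1 rose (Emb) and none fell, and the median was 0.23. With the class of library total (lower or higher) as a term in the fit the median was 0.09, and over the alternatives it ranged from -0.17 to 0.41. Only Emb and Ikzf2 had all BrM libraries above all MFP libraries, beside 5.8% of all genes tested. Ikzf2, which encodes the transcription factor Helios, had 41.3, 94.5 and 82.9 CPM in BrM 1 to 3, against 26.6, 41.1 and 32.9 CPM in MFP 1 to 3 (log2 fold change 0.68, SE 0.28, adjusted p = 0.894). Xcl1, a chemokine gene that attracts cross-presenting dendritic cells, overlapped between sites, with 731, 1612 and 2468 CPM in BrM 1 to 3, against 963, 1272 and 1119 CPM in MFP 1 to 3 (log2 fold change 0.52, SE 0.29). Its value had opposite signs by library total, being -0.63 among libraries of lower total and 0.90 among those of higher total.

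Granule proteins other than Gzma showed no common direction. Of 20 tested genes of the cytotoxic granule and death ligand list, 9 had positive and 11 negative log2 fold changes, none rose or fell, and the median was -0.03. Nkg7, a membrane protein needed for granule release, had 2781, 2489 and 2682 CPM in BrM 1 to 3, against 3232, 3193 and 2510.2 CPM in MFP 1 to 3 (log2 fold change -0.14, SE 0.12). Cma1 had 94.3, 13.5 and 78.5 CPM in BrM 1 to 3, against 116, 98.1 and 85.4 CPM in MFP 1 to 3 (log2 fold change -0.40, SE 0.26), where BrM 2 rests on 3 UMIs. Gzmc, granzyme C, which activated NK cells and ILC1 make, had 31.4, 1332 and 698 CPM in BrM 1 to 3, against 78.2, 32.5 and 312 CPM in MFP 1 to 3 (log2 fold change 2.45, SE 0.92, adjusted p = 0.828). It was high in BrM 2, BrM 3 and MFP 3, the 3 libraries of higher total, and low in the other 3. Among 4 tested serpins that block granzymes, Serpinb9b had 108, 49.5 and 91.6 CPM in BrM 1 to 3, against 83.9, 94.5 and 100.2 CPM in MFP 1 to 3 (log2 fold change 0.05, SE 0.18).

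Interferon-stimulated genes had higher values in BrM without a single call. Of 33 genes of the list, 28 were tested, 27 had positive log2 fold changes and none rose or fell. The median was 0.35, and it stayed between 0.23 and 0.50 over 19 alternatives. In Gzma-low cells of the same libraries the median was -0.06, and whether the lists' medians differ between states was not tested. Every BrM library exceeded every MFP library for 4 of the 28, beside 5.8% of all genes tested. Bst2, tetherin, which holds budding virus at the cell surface, had 147, 194 and 266 CPM in BrM 1 to 3, against 112, 130.1 and 104 CPM in MFP 1 to 3 (log2 fold change 0.70, SE 0.20, adjusted p = 0.646). Ifi204, a member of the DNA-sensing Ifi200 family whose near copies make its count uncertain, had 44.4, 22.5 and 48.0 CPM in BrM 1 to 3, against 18.3, 23.2 and 26.3 CPM in MFP 1 to 3 (log2 fold change 1.03, SE 0.19, adjusted p = 0.159). Ifit3, another interferon-stimulated gene, had 34.0, 9.003 and 56.7 CPM in BrM 1 to 3, against 17.1, 22.01 and 13.1 CPM in MFP 1 to 3 (log2 fold change 0.85, SE 0.25). BrM 2 overlapped the MFP libraries for Ifi204 and Ifit3. The interferon-gamma list gave 21 positive of 24 tested genes, with a median of 0.28 and no call. That median was 0.17 with the class of library total as a term, 0.13 among libraries of lower total and 0.14 among those of higher total. It ranged from 0.02 to 0.42 over 19 alternatives.

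Chaperone genes also leaned towards BrM, mainly in the libraries of higher total. Of 19 tested genes, 17 had positive log2 fold changes, 7 did not overlap between sites in that direction, beside 5.8% of all genes tested, and none rose or fell. The median was 0.31, and it was 0.07 among libraries of lower total and 0.51 among those of higher total. Hspa8, a constitutive HSP70 chaperone, had 2079, 2251 and 2399 CPM in BrM 1 to 3, against 1867, 1879 and 1749.6 CPM in MFP 1 to 3 (log2 fold change 0.31, SE 0.11, adjusted p = 0.812). The HSP90 partner Ppid had 75.3, 117 and 126 CPM in BrM 1 to 3, against 59.9, 69.1 and 54.2 CPM in MFP 1 to 3 (log2 fold change 0.56, SE 0.20). In Gzma-low cells the chaperone median was 0.39.

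Smaller groups gave single genes of interest. Of 6 tested zinc and metallothionein genes, 5 had positive log2 fold changes, with a median of 0.59 and no call. Slc30a1, the zinc exporter of the plasma membrane, had 34.2, 27.0 and 30.5 CPM in BrM 1 to 3, against 18.7, 17.2 and 24.6 CPM in MFP 1 to 3 (log2 fold change 0.83, SE 0.18, adjusted p = 0.305), with no overlap. Of 8 tested Ly49 genes, 6 had negative values (median -0.18, no call), whereas Klra1, encoding Ly49A, had 139.5, 139.6 and 188 CPM in BrM 1 to 3, against 107, 96.4 and 70.6 CPM in MFP 1 to 3 (log2 fold change 0.67, SE 0.18, adjusted p = 0.595). Of 10 tested effector cytokines and chemokines, 8 had negative values and none was called (median -0.26). The median was -0.44 among libraries of lower total and 0.31 among those of higher total, and it kept its sign under 15 of 19 alternatives. Ccl5 had 9787, 3642 and 7153 CPM in BrM 1 to 3, against 10132, 9607 and 7884 CPM in MFP 1 to 3 (log2 fold change -0.40, SE 0.22). Ccl9, a chemokine gene near the detection limit, had 1.31, 0 and 0 CPM in BrM 1 to 3, against 6.99, 11.5 and 21.4 CPM in MFP 1 to 3 (edgeR adjusted p = 0.289), where 2 BrM libraries had no UMI. The median was -0.21 over 18 genes of NF-kB and TNF feedback and -0.15 over 13 mitochondrially encoded transcripts, of which 9 did not overlap, being lower in BrM, beside 8.1% of all genes tested. Neither list held a call, and the NF-kB median was 0.07 among libraries of higher total. The rule limited the mitochondrial share of a cell to 10%. Its median in Gzma-high cells was 2.66, 2.65 and 2.59% in BrM 1 to 3, against 2.96, 3.10 and 2.89% in MFP 1 to 3. The 13 transcripts make up this share together and are not separate results.

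**Figure D5:**
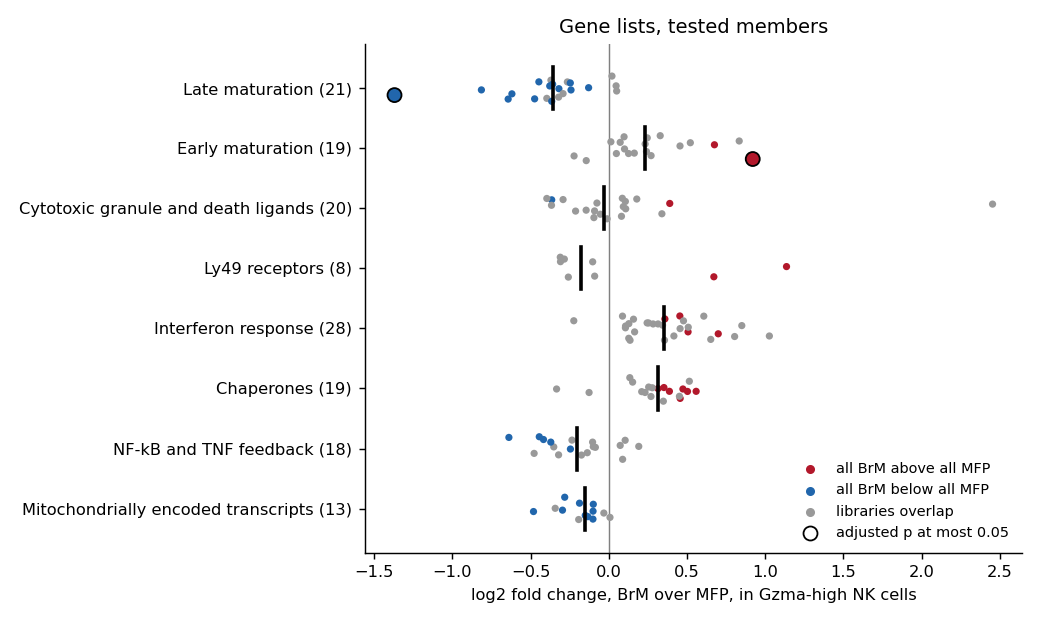
Log2 fold change of BrM over MFP in Gzma-high NK cells (horizontal axis) for each tested gene of 8 lists (numbers in brackets), with the median as a black bar; red and blue mark genes whose libraries did not overlap between sites, and the outlined points are the 2 genes past the adjusted threshold. The late maturation median is -0.36, the early maturation median 0.23, and the isolated point near 2.5 is Gzmc.

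Whether the site difference depends on the Gzma state was tested by an interaction in edgeR on 12 sums, Gzma-high and Gzma-low cells of each library. Of 7787 genes tested, 2 were called (0.0257%), Emb and Gzmb. An unadjusted p under 0.05 was held by 274 genes, where a share of 0.05 is expected without any interaction. For Emb the Gzma-low cells overlapped between sites, with 854, 719 and 816 CPM in BrM 1 to 3, against 712, 776 and 828 CPM in MFP 1 to 3 (log2 fold change 0.10, SE 0.12). The BrM over MFP fold change was 0.76 larger in Gzma-high than in Gzma-low cells on the log2 scale (SE 0.12, edgeR adjusted p = 0.00551).

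Gzmb went the other way. Its Gzma-high cells overlapped between sites, while its Gzma-low cells had 324, 643 and 1099 CPM in BrM 1 to 3, against 229, 208 and 514 CPM in MFP 1 to 3. The fold change differed between the states by -1.30 on the log2 scale (SE 0.22, edgeR adjusted p = 0.00551). Among Gzma-low cells MFP 3 lay above BrM 1, so that the sites overlapped there too. These Gzma-low values were higher in each library of higher total (BrM 2, BrM 3 and MFP 3) than in each of lower total. The libraries of higher total also had few Gzma-low cells. The numbers were 202, 37 and 48 in BrM 1 to 3, against 314, 316 and 49 in MFP 1 to 3. Both calls were lost without MFP 1, without MFP 2 or with a replicate block. That of Emb was also lost at a Gzma threshold of 20 and in thinned cells. That of Gzmb was also lost without BrM 3, without the Eomes requirement and with DESeq2 in place of edgeR. The 8 other genes of lowest p did not pass: Ikzf2, Cxcl2, Ctla2a and Il1b with positive, and Id2, Actb, Cst3 and Tmsb4x with negative interactions. Il1b and Cxcl2 are myeloid cytokine genes, and in Gzma-high cells Il1b was at 2.61, 342 and 244 CPM in BrM 1 to 3, against 1.61, 2.39 and 123 CPM in MFP 1 to 3.

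Markers of other cell types in the Gzma-high cells followed library total. The 9 macrophage and monocyte genes summed to 54.1, 639 and 772 CPM in BrM 1 to 3, against 59.5, 23.2 and 516 CPM in MFP 1 to 3. The 5 neutrophil genes summed to 0.523, 212 and 148 CPM in BrM 1 to 3, against 1.07, 0.718 and 322 CPM in MFP 1 to 3, and the 7 dendritic cell genes to 159, 504 and 641 CPM in BrM 1 to 3, against 101, 107 and 578 CPM in MFP 1 to 3. All 3 lists were high in BrM 2, BrM 3 and MFP 3 and low in the other 3 libraries. At most 2 of the 9 macrophage genes were at 0 in a library. Another 4 genes, which mark microglia, summed to 2.09, 9.003 and 17.4 CPM in BrM 1 to 3, against 2.55, 3.11 and 3.29 CPM in MFP 1 to 3, with 1 to 3 of them at 0. T cell genes other than those of the rule summed to 682, 761 and 593 CPM in BrM 1 to 3, against 642, 709.5 and 637 CPM in MFP 1 to 3, led by Trbc1, which NK cells also transcribe. The 3 erythroid genes were at 0 in 5 libraries. Of 6 B cell genes, up to 4 were at 0 in a library, and the sum was 91.6 to 131 CPM except in MFP 3, where 1475 of 1476 Igkc UMIs came from 1 cell and the sum was 2514 CPM. ILC1 genes summed to 118, 315 and 161 CPM in BrM 1 to 3, against 129.7, 131 and 215 CPM in MFP 1 to 3, with BrM 2 highest. For Emb and Klrg1, the site difference had the same direction within both classes of library total (0.78 and 0.97 for Emb, -1.52 and -0.76 for Klrg1, lower totals given before higher ones). Each class compares 2 libraries with 1, and the part of library total in these differences was not tested. The levels of Gzmc, and of Gzmb in Gzma-low cells, followed library total. For Xcl1 and the chaperones it was the site difference that varied with the class of total. The part of other cells' RNA in all of these genes was not tested.

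Eomes-negative NK-gated cells, those without a captured Eomes UMI, numbered 2434 and were not Gzma-low as a whole. Their Gzma averaged 7066 ± 1776 CPM (SD over 6 libraries), their Gzmb 1759 ± 636 CPM and their Emb 664 ± 218 CPM. NK cells whose Eomes RNA was missed may be among them, so these values do not describe ILC1 alone.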

How the data were processed

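Droplet libraries (10x 3′ v3) of sorted CD45-positive cells gave UMI counts per gene and barcode, deposited by the authors as unnormalised matrices. Per the submitters' processing notes, Cell Ranger 4.0 and the build mm10 were used. Barcodes were filtered and gated as the results state, with Python 3.11.15, numpy 2.4.6, scipy 1.17.1 and pandas 2.3.3. The members and gene lists were chosen with earlier results of these data known. Scrublet (scanpy 1.11.5) scored doublets. The threshold it set marked between 0.0125% and 3.04% of cells per library, under 0.5% in 4 libraries, so it did not work there; no cell was removed except in an alternative without the top 7% of scores.

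Raw counts were summed over the Gzma-high cells of each library and tested as BrM over MFP in edgeR 4.0.16 (R 4.3.3; TMM scaling, filterByExpr, quasi-likelihood test, Benjamini-Hochberg adjustment). The 9 genes of the rule were kept in library sizes and not tested. Standard errors are the log2 fold change divided by the square root of its F statistic. The interaction of site and Gzma state used the library as a block. Shares were compared by exact permutation over libraries. Thinning drew 2000 UMIs per cell without replacement; shallower cells were left out. The site and interaction fits were tried on simulated counts.

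Genes named are those of the rule and its markers, the 20 largest and 10 smallest state ratios moving the same way in every library at 50 CPM or more, the 10 of lowest p in each direction between sites and the 5 for the interaction at that level, and per list those called plus up to 4 of highest level or largest fold change; some genes that this rule names are not reported here. Emb, Klrg1 and Gzmb bins, and Klra and late-receptor detection, were added to describe them. Alternatives were DESeq2 1.42.0, its size factors, no filter on low counts, each library left out, Gzma thresholds of 20 and 80, and no Eomes requirement. Others were thinned cells, equal cell numbers, a replicate block, the class of library total (lower or higher) as a term, and fits within each class.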

Additional observations from a re-analysis of the deposited data

Results flagged for a closer look

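The BrM over MFP difference of Emb differed between Gzma-high and Gzma-low NK cells by 0.76 on the log2 scale, by the edgeR test of the interaction itself (adjusted p = 0.00551). Each of the 3 BrM libraries exceeded each of the 3 MFP libraries in Gzma-high cells. The difference of Gzmb differed between the same cells by -1.30 (edgeR adjusted p = 0.00551), and its libraries overlapped between sites in both states.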

How the results depend on the processing

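Counts of called genes depended on the processing more than directions did. The site count of 2 became 6 with DESeq2, 64 without a filter on low counts, 36 with library total as a term, 107 within the lower and 20 within the higher totals, and 0 with a Gzma threshold of 20, without the Eomes requirement or with equal cell numbers. With each library left out it was 0 to 12. Fits within a class of totals compare 2 libraries with 1 and assume that the lone library varies like the others. The interaction count of 2 became 1 with DESeq2, which called Emb but not Gzmb. It became 16 without the filter, 1 (Gzmb, not Emb) at a threshold of 20 and 9 at a threshold of 80. Without top Scrublet scores it was 4, and with each library left out 0 to 8.

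Same-numbered libraries were not treated as pairs in the main fits. Their deviations from the site means correlated at 0.36, -0.12 and 0.17 over 2749 genes, against -0.33 to 0.24 for libraries of other numbers. The correlations were positive within a class of library total and negative across the classes. They therefore cannot show whether the libraries were paired. With a replicate block the site count was 17 and the interaction count 0, where Emb had an adjusted p of 0.198 and Gzmb of 0.134. The sign-flip permutation of the paired shares gave p = 0.25, the smallest possible.

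Emb kept its site call under 11 of 19 alternatives and Klrg1 under 9 of 17, and both kept their sign in all of these. The differences in both shares kept their direction under the 12 alternatives run for each (Gzma thresholds, no Eomes requirement, top Scrublet scores removed, thinned cells, the sign-flip and each library left out), and that in Gzma level under its 9 (another pseudocount, thinned cells, no Eomes requirement and each library left out). With each library left out they ranged from -18.2 to -6.18 and from -9.80 to -2.10 percentage points, and from -0.65 to -0.26 on the log2 scale. Of 50 named genes, the sign turned for Ccl3 (0.0420 without BrM 1, 0.0076 without MFP 2, 0.66 within higher totals; -0.94 to 0.0420 with each library left out), Cma1 (0.10 thinned), Gzmc (-0.88 thinned, -0.93 within lower totals), Ikzf2 (-0.23 thinned), Klra4 (0.0030 thinned), Klra8 (0.14 with equal numbers), Nkg7 (0.0740 within higher totals), Prf1 (0.0443 with equal numbers) and Xcl1 (-0.63 within lower totals, edgeR adjusted p = 0.0145). It also turned for Serpinb9b (-0.30 without BrM 1, -0.08 without MFP 1, -0.0444 at threshold 80, -0.36 with equal numbers, -0.47 within higher totals; -0.30 to 0.20 with each library left out). Interactions turned for Cxcl2 (-3.11 at threshold 80, -0.75 without top Scrublet scores), Il1b (-0.96 and -0.65 under the same) and Ikzf2 (-1.41 thinned). The state ratio turned for Maff (0.26) when thinned. The causes were not tested. Thinning left BrM 2 out of the site fit, since under 20 cells remained. Depth limits BrM 2 and BrM 3 most, with 44 and 66 cells.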
